A study of Mus musculus with 8 samples.

Results

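The apolipoprotein genes described here are 10 genes of the mouse: Apoa1, Apoa2, Apoa4, Apoa5, Apob, Apoc1, Apoc2, Apoc3, Apoe and Apom. They were taken by symbol, through the NCBI gene identifier, from a table of 45777 genes in 8 libraries, and 10 of 10 were found. The identifiers are 11806 for Apoa1, 11807 for Apoa2, 11808 for Apoa4, 66113 for Apoa5, 238055 for Apob, 11812 for Apoc1, 11813 for Apoc2, 11814 for Apoc3, 11816 for Apoe and 55938 for Apom. Apolipoproteins are the protein part of the lipoprotein particles that carry triglyceride and cholesterol in blood. The liver is their main source, and the small intestine adds some of them with dietary fat. Apob is the structural protein of very low density lipoprotein (VLDL) and stays on 1 particle for life, whereas the smaller members move between VLDL, chylomicrons and high density lipoprotein (HDL) and set how fast a particle is hydrolysed or taken up.

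RNA came from the liver and colon of mice with non-alcoholic steatohepatitis (NASH, a fatty and inflamed liver), of NASH mice that received bovine colostrum extracellular vesicles (EVs, small membrane particles) at a low dose or at a high dose, and of control mice. Each of the 4 groups was represented by 1 library per tissue, so every comparison below describes a pair of libraries, has no error and no test, and cannot say how animals of 1 group differ. The labels gave no amount of vesicles, strain, sex, age, diet or number of animals behind a library, and the disease in the EV groups was taken from the text on the series. Values are FPKM (fragments per kilobase of transcript, scaled to the library), a level per length, and the read depth is unknown. Levels of different genes are set side by side on this scale. Their main annotated transcripts run from 432 bases (Apoc1) to 13934 (Apob), and how well FPKM evens out such lengths was not tested. At 1 FPKM or more stood 10469 to 12420 genes per liver library and 13863 to 14480 per colon library. In each liver library 10 of 10 hepatocyte markers reached 1 FPKM, against 4 to 6 of 10 in the colon libraries. Of 10 colonocyte markers, 3 to 4 reached 1 FPKM in liver. Their sums were 91.9 to 174 FPKM in liver and 3418 to 4258 in colon. Cdx2, a colonocyte marker and transcription factor of gut epithelium, was listed at 0 in each liver library. It was at 33.4 FPKM or more in each colon library.

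Ratios were computed on log2(FPKM + 1), and a gene was counted as apart at 2-fold or more. In liver the log2 ratio of NASH over control of the median gene was 0.55, so liver log2 ratios are relative to the median gene, while FPKM and percentages of FPKM are as deposited. Colon log2 ratios are as deposited. In bulk tissue, fewer cells of a type and less RNA per cell cannot be told apart.

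The NASH liver made a different mixture of apolipoprotein RNA than the control liver. Apoa4 was 68.0 times as high in FPKM, and Apoa2, Apoc3, Apoc1, Apom and Apoa1 were lower, at 30.0% to 59.9% of the control level. Apoe was at 247% and Apoc2 at 225% of the control level. Relative to the median gene, 1 of 10 genes was at least 2-fold higher (Apoa4) and 5 of 10 were at least 2-fold lower, where 7.21% and 7.66% of 12866 genes were. As deposited, Apoa4, Apoe and Apoc2 were at least 2-fold higher and Apoa2, Apoc1 and Apoc3 at least 2-fold lower, where 20.5% and 3.23% of genes were. The median of the 10 log2 ratios was -0.63, beside 0 for all genes by construction. With both EV doses, Apoa4 was lower than in the NASH liver (76.6% and 53.9% of the NASH level), while 10 of 10 genes lay within 2-fold of NASH.

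**Figure D1:**
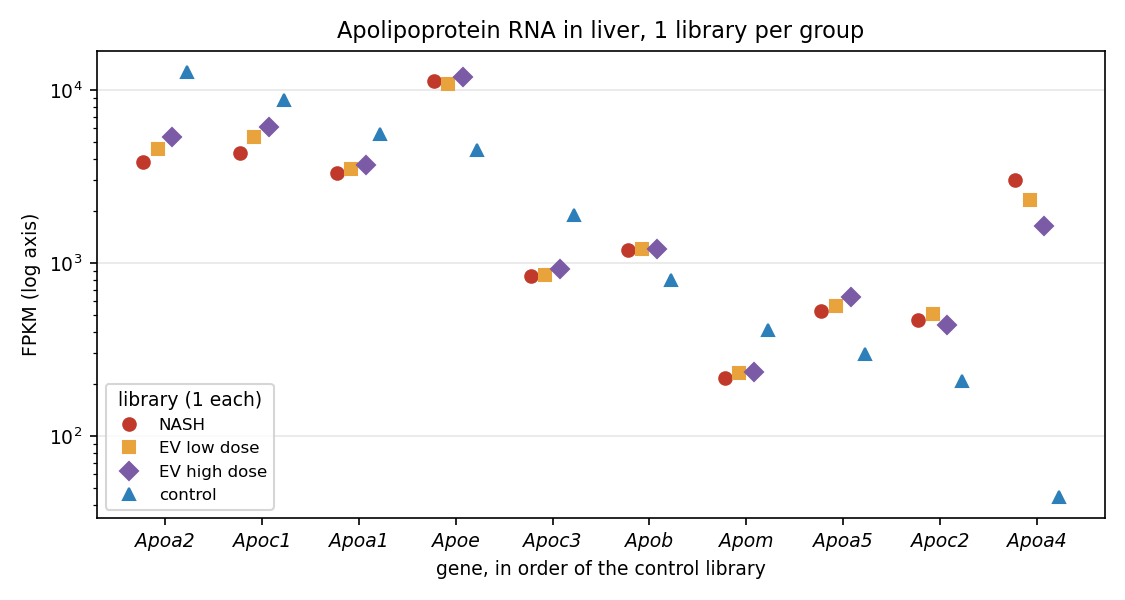
FPKM of the 10 apolipoprotein genes in the 4 liver libraries on a log axis, with genes in the order of the control library and 1 point per library. Apoa4 lies far above control in the NASH and EV libraries, between 1631 and 3027 FPKM against 44.5, and the most abundant gene is Apoe in those libraries and Apoa2 in the control library.

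The summed level of the 10 genes differed less than its parts. It was 28908 FPKM in the NASH library, 29823 with the low and 32077 with the high EV dose, and 35158 in the control library. As a share of the FPKM of all protein-coding genes it was 7.71%, 7.89%, 8.03% and 8.04% in the same order of libraries. With the major urinary protein (Mup) genes left out of the denominator, the shares were 7.80%, 8.06%, 8.29% and 9.33%, highest in control. Within that pool Apoe held 38.7% in the NASH library, 36.2% and 37.1% with the low and high dose, and 12.9% in the control library. Apoa2 held 13.2% in NASH, 15.2% and 16.6% with the low and high dose, and 36.1% in control. Apoa4 held 10.5% in NASH, 7.78% and 5.08% with the low and high dose, and 0.127% in control. Among all protein-coding genes Apoe ranked 2nd in the NASH library and 13th in the control library, Apoa2 ranked 9th and 3rd, and Apoa4 ranked 13th and 993rd.

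**Figure D2:**
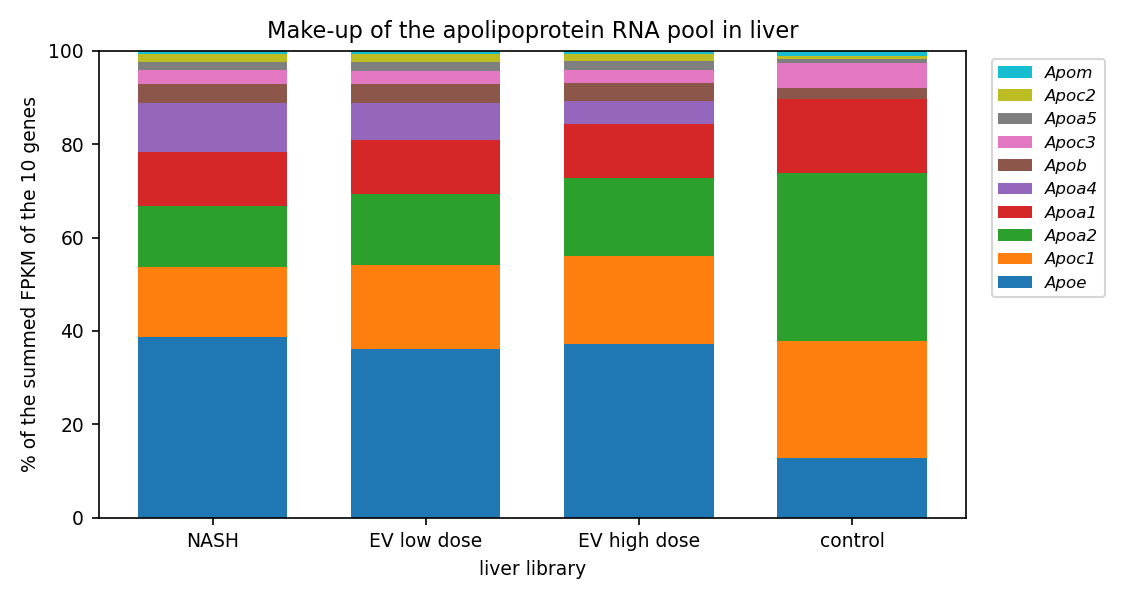
Share of each of the 10 genes in their summed FPKM, as stacked bars that add to 100%, for the NASH, EV low dose, EV high dose and control liver libraries. The Apoe block is 38.7% of the NASH bar and 12.9% of the control bar, the Apoa2 block 13.2% and 36.1%.

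Apoa4 is an exchangeable apolipoprotein of chylomicrons and HDL that mice make in the intestine and, at a level that varies with diet, in the liver. Its gene (ID 11808) lies on chromosome 9 from 46240696 to 46243459 on the plus strand, and its principal transcript has 3 exons and 1815 bases (GENCODE M21 on GRCm38). Liver Apoa4 was at 3027 FPKM in NASH, 2319 with the low and 1631 with the high EV dose, and 44.5 in control. The control library stood alone, and the libraries of NASH mice were ordered NASH, low dose, high dose from high to low. The log2 ratio was 5.50 for NASH over control, -0.25 for low dose over NASH and -0.76 for high dose over NASH. These held their direction under each of 7 alternative ways of scaling, filtering and adding a pseudocount, at 5.35 to 6.28, -0.40 to -0.19 and -0.98 to -0.70. With 1 library per group, the EV steps cannot be set against the spread between animals.

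The HDL proteins Apoa1, Apoa2 and Apom lay the other way. Apoa1, the main structural protein of HDL and the activator of the enzyme LCAT, was at 3322 FPKM in NASH, 3468 and 3695 with the low and high dose, and 5546 in control (log2 -1.29 for NASH over control, and 59.9% of control). Apoa2, the second HDL protein by amount, was at 3808 FPKM in NASH, 4530 and 5320 with the low and high dose, and 12691 in control (log2 -2.29). Apoa2 was the lowest of the 10 ratios and stayed at least 2-fold lower under 7 of 7 alternatives, between -2.45 and -1.51. For Apoa1 the difference was under 2-fold as deposited (-0.74), at equal protein-coding sums (-0.52) and with no filter (-0.91). Apom, which carries sphingosine-1-phosphate on HDL, was at 216 FPKM in NASH, 231 and 235 with the low and high dose, and 411 in control (log2 -1.48, and -0.92 as deposited). Apoa2 (chromosome 1, 171225054 to 171226379) and Apom (chromosome 17, 35128997 to 35132050) lie outside the 2 gene clusters. In all 3 genes the control library was the highest, and the NASH library the lowest of the 4.

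The promoter windows of Apoa4, Apoa1 and Apoa2 are shown because Apoa4 had the highest and Apoa2 the lowest ratio, and Apoa1, in the same cluster as Apoa4, lay the other way. RefSeq sequence of GRCm38.p6 is given 5′ to 3′ on the gene's strand, from 250 bases before to 50 bases after the RefSeq start. Capitals mark matches, on either strand, to TATAAA (the TATA box) or TGACG (the core bound by CREB and ATF proteins). The RefSeq start lies downstream of the start of the GENCODE principal transcript by 148 bases for Apoa4 and 50 bases for Apoa1, and upstream of it by 28 bases for Apoa2.
Apoa4, chr9:46240594-46240893, plus strand: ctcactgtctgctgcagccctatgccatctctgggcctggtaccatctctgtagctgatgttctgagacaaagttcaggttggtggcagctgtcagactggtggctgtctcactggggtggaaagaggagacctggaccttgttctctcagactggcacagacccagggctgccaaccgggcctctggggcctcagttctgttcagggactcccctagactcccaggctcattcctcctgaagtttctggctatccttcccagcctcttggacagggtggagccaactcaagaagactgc
Apoa1, chr9:46228380-46228679, plus strand: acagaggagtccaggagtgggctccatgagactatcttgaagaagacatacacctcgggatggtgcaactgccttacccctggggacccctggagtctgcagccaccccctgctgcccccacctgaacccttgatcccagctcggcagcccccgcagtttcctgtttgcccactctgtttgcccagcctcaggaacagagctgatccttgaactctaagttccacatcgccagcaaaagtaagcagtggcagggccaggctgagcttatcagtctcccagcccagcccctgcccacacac
Apoa2, chr1:171224804-171225103, plus strand: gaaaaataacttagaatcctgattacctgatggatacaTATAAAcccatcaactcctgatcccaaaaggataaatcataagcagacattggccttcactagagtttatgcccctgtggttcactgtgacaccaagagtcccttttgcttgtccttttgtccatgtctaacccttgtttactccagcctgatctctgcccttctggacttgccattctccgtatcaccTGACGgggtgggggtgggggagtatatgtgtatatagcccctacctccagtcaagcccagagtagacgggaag

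Windows were found for 8 of the 10 genes, all but Apoc1 and Apoc3. Of these 8, the TATA box letters were in 3 (Apoa2, Apoa5 and Apob) and TGACG in 2 (Apoa2 and Apoc2), against 13.6% and 20.8% of 32851 windows in the whole table. The nuclear receptor hexamer AGGTCA was in 1 (Apoc2), against 16.3% of windows. The HNF4 core CAAAGTCCA and the full element TGACGTCA, which contains TGACG, were in 0 of 8, against 0.475% and 1.79% of windows. The start of the GENCODE principal transcript lies 445, 1077 and 136 bases from the RefSeq start for Apoa5, Apoc2 and Apoe, outside their windows. For Apom it lies 249 bases upstream of the RefSeq start, at the upstream edge of the window. Nearly all of the Apom window thus lies downstream of that start. TATAAA of Apoa2 lies 212 bases upstream of its RefSeq start. Such matches describe letters within these windows and were not compared with binding.

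Apoa1, Apoc3, Apoa4 and Apoa5 form 1 cluster on chromosome 9, with start sites 6.72, 12.1 and 40.5 kb from that of Apoa1. Between the NASH and control livers, its neighbours Apoc3 and Apoa4 differed in opposite directions. Apoa1 and Apoc3 were both lower in NASH, and Apoa4 and Apoa5 were both higher. Apoc3, which slows lipolysis and remnant uptake, was at 845 FPKM in NASH, 847 and 920 with the low and high dose, and 1886 in control (log2 -1.71). Apoa5, which promotes lipolysis by lipoprotein lipase, was at 527 FPKM in NASH, 564 and 632 with the low and high dose, and 297 in control (log2 0.27, and 0.83 as deposited). Ratios between genes of 1 library do not depend on how libraries are scaled. Apoa4 over Apoa1 was 0.911 in NASH, 0.669 and 0.441 with the low and high dose, and 0.00802 in control. Apoa5 over Apoc3 was 0.624 in NASH, 0.666 and 0.688 with the low and high dose, and 0.157 in control. Apoc3 over Apoa1 moved less, at 0.254 in NASH, 0.244 and 0.249 with the low and high dose, and 0.340 in control.

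**Figure D3:**
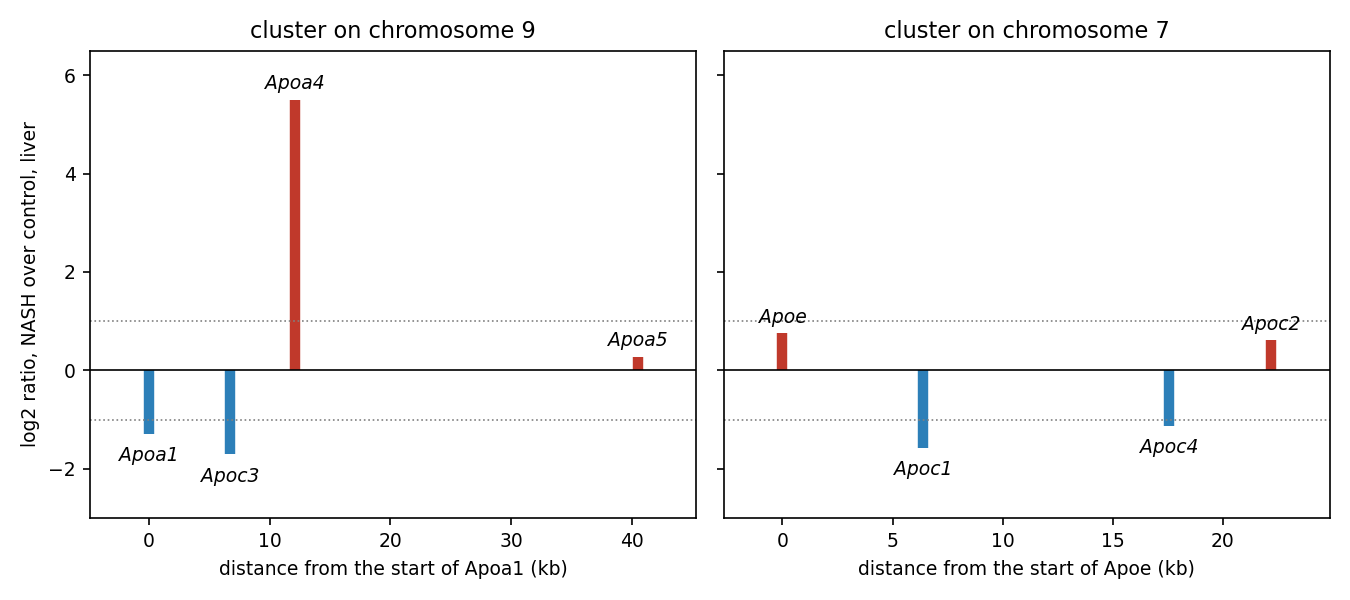
Log2 ratio of NASH over control in liver, relative to the median gene, against the distance of each start site from that of the first gene of its cluster, in kilobases along the direction of transcription of Apoa1 (left) and Apoe (right). Dotted lines mark 2-fold, red bars lie above and blue bars below 0, and both clusters hold both: Apoa4 stands at 5.50 next to Apoc3 at -1.71, and Apoe at 0.75 next to Apoc1 at -1.57.

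Apoe, Apoc1, Apoc4 and Apoc2 lie on the minus strand of chromosome 7 within 22.2 kb, counted between start sites. Apoe, the ligand by which remnants bind their uptake receptors, is made by hepatocytes and by macrophages. It was at 11184 FPKM in NASH, 10811 and 11914 with the low and high dose, and 4519 in control. Its log2 ratio of NASH over control was 0.75, under 2-fold relative to the median gene, and 1.31 as deposited, so its place past 2-fold depends on the scaling. Apoc1, a small protein that hinders receptor uptake of remnants, was at 4327 FPKM in NASH, 5345 and 6086 with the low and high dose, and 8761 in control (log2 -1.57). Apoc2, the cofactor that lipoprotein lipase needs, was at 468 FPKM in NASH, 507 and 436 with the low and high dose, and 208 in control (log2 0.62, and 1.17 as deposited).

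Within a library Apoe over Apoc1 was 2.58 in NASH, 2.02 and 1.96 with the low and high dose, and 0.516 in control. Apoc2 over Apoc3, the cofactor of lipolysis over its inhibitor, was 0.554 in NASH, 0.599 and 0.474 with the low and high dose, and 0.110 in control. Both ratios were lowest in the control library. Apoc4, outside the set of 10, was at 666 FPKM in NASH, 724 and 790 with the low and high dose, and 1000.1 in control (log2 -1.14). Apoc4 lies directly next to Apoc2 on the same strand, so the division of reads between them is uncertain. Macrophage markers, like Apoe, were lowest in control. They summed to 866 FPKM in NASH, 809 and 884 with the low and high dose, and 171 in control. Of 10 markers, 10, 10, 10 and 8 were at 1 FPKM or more. Apoe over the macrophage marker Lyz2 was 46.1 in NASH, 50.1 and 41.5 with the low and high dose, and 139 in control. Apoe over C1qa, another such marker, was 94.5, 91.5, 99.5 and 152 in the same order, so both ratios were highest in control. Hepatocyte markers summed to 32285, 31707 and 31945 FPKM in NASH, low dose and high dose, and to 41868 in control. Of these 10 markers, 6 were at least 2-fold lower in NASH than in control, or 5 as deposited, and 0 were higher, with a median log2 ratio of -1.61. Their median log2 ratio over NASH was 0.29 with the low and 0.47 with the high dose. The part of cell makeup in the apolipoprotein ratios was not tested.

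Apob had no direction that held under each scaling. This gene (chromosome 12, 7977648 to 8016835, 29 exons) was at 1184 FPKM in NASH, 1200.1 and 1209 with the low and high dose, and 795 in control. Its log2 ratio of NASH over control was 0.02 relative to the median gene and 0.58 as deposited, and over 7 alternatives it ran from -0.14 to 0.80. Apoa1 over Apob, a ratio of the main HDL protein to the VLDL protein at the RNA level, was 2.81 in NASH, 2.89 and 3.06 with the low and high dose, and 6.98 in control.

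With either EV dose, 0 of 10 genes were 2-fold apart from the NASH liver. Among all 12866 genes the low dose had 0.443% at 2-fold or more above NASH and 0.225% below, and the high dose 0.816% above and 0.373% below. Between the doses 0 of 10 were apart, beside 0.303% of genes higher and 0.163% lower with the high dose. With the low dose the widest ratios were those of Apoc1 (log2 0.44) and Apoa2 (0.39), and with the high dose those of Apoa4 (-0.76), Apoc1 (0.63) and Apoa2 (0.62). Apoc1 and Apoa2 were above NASH at both doses under 7 of 7 alternatives each. Their EV levels in FPKM lay between those of NASH and control, as did those of Apoa1, Apoa4, Apoc3 and Apom. Apoa5 and Apob were, in FPKM, farther from control with both doses than in NASH. The median of the 10 log2 ratios was 0.22 with the low and 0.26 with the high dose, beside 0 for all genes by construction. As deposited, the median gene stood at -0.14 with the low and -0.13 with the high dose. Taking ratios relative to it thus raised each of the 10 ratios by that amount. Above NASH were 9 of 10 genes with each dose relative to the median gene, and 8 of 10 as deposited. The EV libraries share the NASH library in these ratios, so the doses are not independent of each other.

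**Figure D4:**
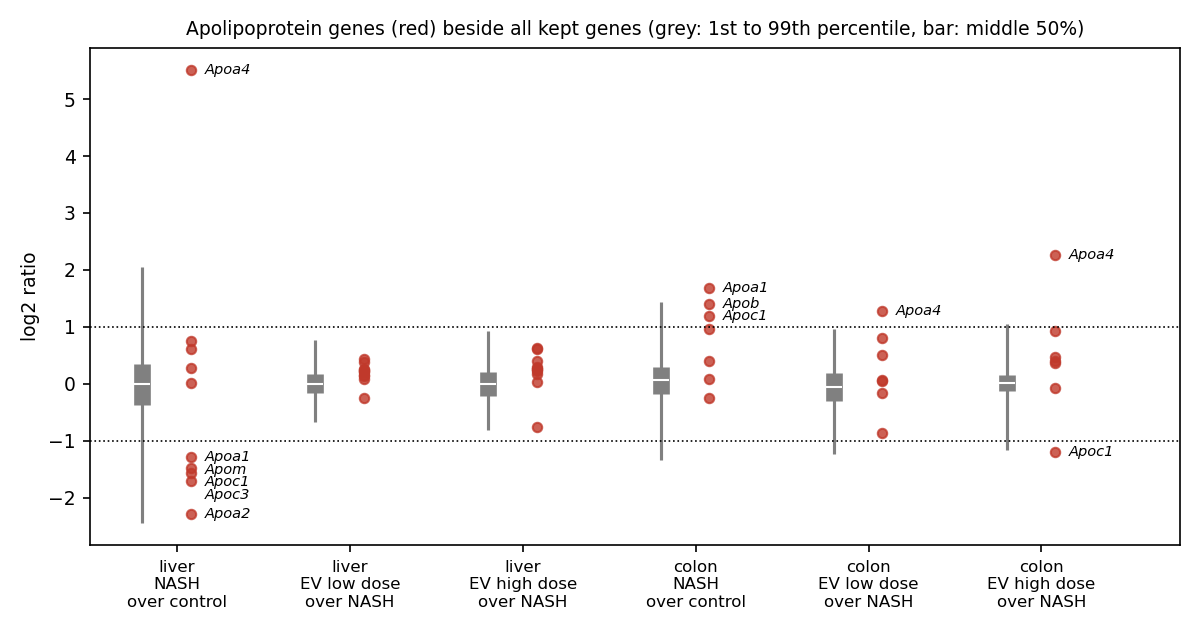
Log2 ratios of the apolipoprotein genes (red points, 10 in liver and the 7 in colon that reached 1 FPKM) beside all genes kept in that tissue (grey line, 1st to 99th percentile, bar, middle 50%), for NASH over control and each EV dose over NASH. Apoa4 is at 5.50 in the first liver column, each red point in the liver EV columns lies within the dotted 2-fold lines, and Apoa4 is above them in both colon EV columns.

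Genes whose liver pattern was nearest to the extremes were sought among 6588 genes with a mean of 5 FPKM or more, by the distance between log2 profiles over the 4 liver libraries. Nearest to Apoa4 was Cidec, a protein of large lipid droplets, at a distance of 0.28 log2 units and 55.1, 42.8, 31.7 and 0.0793 FPKM in NASH, low dose, high dose and control. Next were D17H6S56E-5 (distance 0.57), Ly6d (0.60), the steroid hydroxylase gene Cyp2a4 (0.77) and Gm3776 (1.01). Nearest to Apoa2 were Haao, an enzyme of tryptophan breakdown (0.037), Ttr, the thyroxine carrier transthyretin (0.055), Aspdh (0.065), Gm12909 (0.077) and Gm10319 (0.10). Haao was at 52.4, 62.7, 73.9 and 183 FPKM in the same order of libraries. With 4 libraries, many genes can share a profile.

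Other genes of lipoprotein metabolism, in 6 lists, were read against the same shares of all genes. Of 18 genes of assembly and secretion, 1 was 2-fold higher in the NASH liver and 0 lower. The gene was Apobec1, which edits Apob RNA to give the short form of the protein (18.7 FPKM in NASH against 4.39 in control, log2 1.32). Mttp, the lipid transfer protein that loads Apob, was at 67.9 FPKM in NASH against 50.4 in control (log2 -0.13 relative to the median gene). Of 13 HDL genes, 5 were higher and 1 was lower. Pla2g7, a plasma phospholipase (log2 1.89), Abcg1, a cholesterol exporter (log2 1.81), and Pltp, the phospholipid transfer protein (45.0 FPKM in NASH against 8.80 in control, log2 1.68), were the highest. Pon1, the HDL-bound paraoxonase, was lower (210 FPKM in NASH against 494 in control, log2 -1.79).

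Of 10 genes of lipolysis, 3 were higher and 2 were lower in the NASH liver, or 4 and 2 as deposited. Lpl, which encodes lipoprotein lipase, was at 62.3 FPKM in NASH against 5.05 in control (log2 2.83), Angptl4, an inhibitor of that lipase, stood at 1.28, and Pnpla2, the lipase of lipid droplets, at 1.07. Angptl8, another inhibitor of that lipase, was at 17.5 FPKM in NASH against 77.9 in control (log2 -2.65), and Lipc, the hepatic lipase, at 33.5 against 69.7 (log2 -1.59). Of 12 genes of receptors and uptake, 11 were kept and 1 was higher, or 3 as deposited. It was Cd36, a fatty acid and lipoprotein receptor (131 FPKM in NASH against 7.68 in control, log2 3.38). Of 16 further genes named apolipoproteins, 11 were kept, 0 were higher and 2 lower, or 1 and 1 as deposited. The 2 lower ones were Apoh (781 FPKM in NASH against 1603 in control, log2 -1.59) and Apoc4.

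Of 23 transcription factor genes known at apolipoprotein promoters, 22 were kept, 0 were 2-fold higher and 2 were lower in the NASH liver, or 1 and 1 as deposited. The lower ones were Nr0b2, the bile acid induced repressor SHP (11.5 FPKM in NASH against 31.2 in control, log2 -1.92), and Mlxipl, the carbohydrate-responsive factor ChREBP (12.1 against 23.9, log2 -1.48). Creb3l3, a liver and gut membrane-bound factor known to act at Apoa4, was at 119 FPKM in NASH against 70.7 in control (log2 0.19). Hnf4a was at 69.1 FPKM in NASH against 54.6 in control (log2 -0.22 relative to the median gene). With either EV dose, 0 members of the 6 lists were 2-fold apart from NASH in liver, relative to the median gene. The widest log2 ratio of each list with the low dose was that of Sar1b, which serves the export of lipoproteins (0.58), Pon1 (0.41), Gpihbp1, the anchor of lipoprotein lipase (0.44), the scavenger receptor Stab1 (-0.36), Apol7a (0.51) and Nr1d1, a clock repressor (-0.77). With the high dose it was that of Sar1b (0.71), the acute-phase HDL protein Saa1 (0.90), Lipc (0.64), the remnant receptor Lrp1 (-0.55), Apol9b (0.74) and Nr1d1 (-0.89). Nr1d1 was at 2.88 FPKM with the high dose against 6.89 in NASH, and as deposited it was past 2-fold.

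The colon held little apolipoprotein RNA. The 10 genes summed to 222 FPKM in NASH, 303 and 230.1 with the low and high EV dose, and 188 in control, which was 0.0650%, 0.0772%, 0.0640% and 0.0510% of protein-coding FPKM. Apoe made up 75.6% to 92.3% of these sums. Apoa5, Apoc3 and Apom stayed under 1 FPKM in each colon library, with Apom listed at 0 in the low dose and control libraries and Apoc3 in the control library. Of the 7 genes that reached 1 FPKM in at least 1 colon library, 3 were 2-fold higher in NASH than in control and 0 lower, where 2.43% and 1.97% of 15245 genes were. The median of the 7 ratios was 0.96, the ratio of Apoa4, beside 0.06 for all genes. In control, Apoa1, 1 of the 3 higher genes, was at 0.158 FPKM, Apoa2 at 0.732 and Apoa4 at 0.0534. They passed the 1 FPKM filter only through NASH and EV libraries, which favours ratios above 0 for them in NASH over control. With the low dose 1 of the 7 genes was 2-fold above NASH and 0 below, beside 0.905% and 1.95% of genes. With the high dose 1 was above and 1 below, beside 1.1% and 1.43%, and between the doses 0 were apart, beside 0.872% and 0.682%.

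Apoa4 was the colon gene with the widest range. It was at 1.05 FPKM in NASH, 3.96 and 8.86 with the low and high dose, and 0.0534 in control. The order was control, NASH, low dose, high dose from low to high, whereas in liver the level was lower with each EV dose than in NASH. The log2 ratio was 0.96 for NASH over control, 1.27 for low dose over NASH and 2.26 for high dose over NASH. The pseudocount narrows such ratios near 1 FPKM: with 0.1 FPKM in its place the first became 2.91, and with 5 FPKM the last became 1.20. Apoa4 levels of 1 to 9 FPKM are small next to the 1631 FPKM or more of the livers of NASH mice, and the number of reads behind them is unknown.

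**Figure D5:**
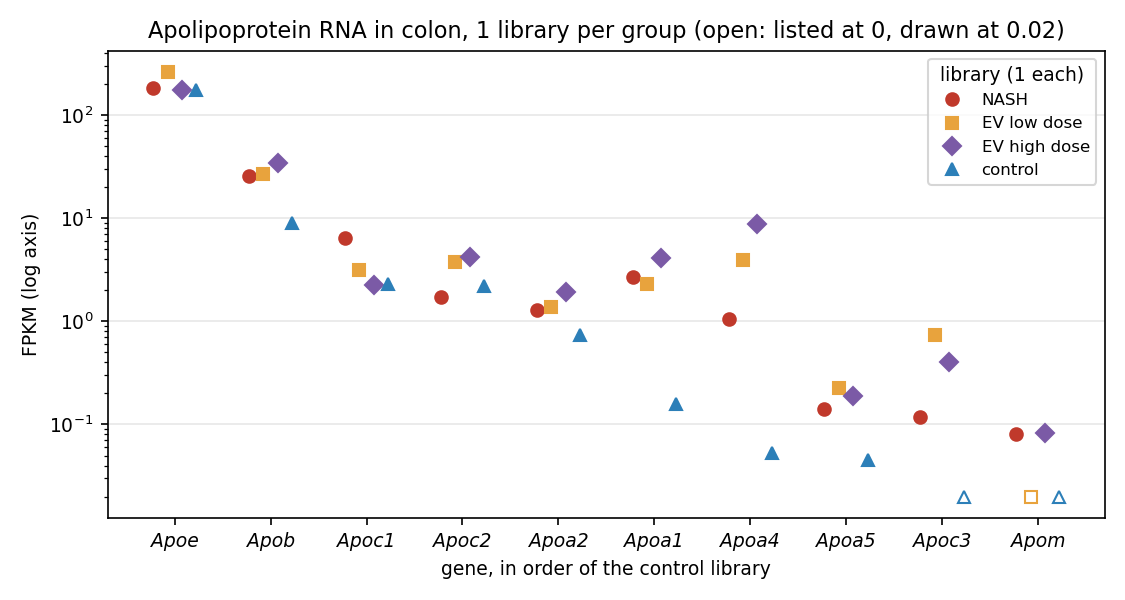
FPKM of the 10 apolipoprotein genes in the 4 colon libraries on a log axis, in the order of the control library, with open symbols for genes listed at 0 and drawn at 0.02. Apoe lies between 174 and 261 FPKM and Apob between 8.98 and 34.0, and Apoa4 is at 8.86 FPKM with the high dose and 0.0534 in control.

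Colon Apob was at 25.5 FPKM in NASH, 26.6 and 34.0 with the low and high dose, and 8.98 in control (log2 1.41 for NASH over control). It stayed at least 2-fold higher in NASH under 7 of 7 alternatives, between 1.13 and 1.52. Apoa1 was at 2.70 FPKM in NASH, 2.33 and 4.13 with the low and high dose, and 0.158 in control (log2 1.68). Apoc1 was at 6.47 FPKM in NASH, 3.13 and 2.27 with the low and high dose, and 2.29 in control, so that the NASH library stood above the other three (log2 1.18 for NASH over control and -1.19 for high dose over NASH). Apoc2 was at 1.71 FPKM in NASH, 3.76 and 4.18 with the low and high dose, and 2.21 in control (log2 0.81 and 0.93 for the low and high dose over NASH). Apoa2 lay between 0.732 and 1.94 FPKM. Apoe, at 183 FPKM in NASH, 261 and 174 with the low and high dose, and 174 in control, was highest with the low dose.

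Markers of other cell types also differed between the colon libraries. Hepatocyte markers summed to 91.9 FPKM in NASH, 104 and 90.8 with the low and high dose, and 89.1 in control, with 6, 6, 5 and 4 of 10 at 1 FPKM or more. Of the 6 kept, 2 were at least 2-fold higher in NASH than in control and 0 lower, and 2 had ratios below 0. Of the 2 higher ones, the albumin gene Alb was at 4.60 FPKM in NASH, 2.90 and 5.18 with the low and high dose, and 0.782 in control. Apoa1 over Alb was 0.588 in the colon and 0.211 in the liver NASH library, and 0.201 in the colon and 0.285 in the liver control library. Apob over Alb was 5.55 in the colon and 0.0753 in the liver NASH library, and 11.5 and 0.0408 in the control libraries. Of 11 small intestine enterocyte markers, 9, 9, 8 and 7 reached 1 FPKM in NASH, low dose, high dose and control. Their sums were 361, 629, 412 and 338 FPKM in that order. Of the 9 kept, 3 were at least 2-fold higher in NASH than in control and 0 lower. Against NASH, 1 was higher and 0 lower with the low dose, and 1 was higher and 2 lower with the high dose. For high dose over NASH the 9 log2 ratios ran from -2.24 to 1.11, with 5 above 0 and 4 below. Sis, the sucrase of the small intestine, was at 2.59 FPKM in NASH, 1.90 and 0.970 with the low and high dose, and 0.314 in control. Sis was not among the 2 lower with the high dose, and Lct was at 0.256 FPKM or less in each library. Apoa4 over Fabp1, another of these markers, was 0.706 in NASH, 2.42 and 2.02 with the low and high dose, and 0.127 in control. Adipocyte markers summed to 295 FPKM in NASH, 143 and 65.2 with the low and high dose, and 89.2 in control, with 6, 5, 4 and 5 of 7 at 1 FPKM or more. Of 6 adipocyte markers kept, 6 were at least 2-fold higher in NASH than in control, 4 were lower with the low dose than in NASH and 6 were lower with the high dose, and Apoc1 had the same order of NASH against the EV libraries. Macrophage markers summed to 174, 265 and 201 FPKM in NASH, low dose and high dose, and to 209 in control, with 8, 9, 9 and 8 of 10 at 1 FPKM or more and Clec4f listed at 0, and Apoe was highest in the same library. The part of other tissue or cell makeup in the colon values was not tested.

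Among listed genes of colon, Dgat2 (log2 1.29) and Cideb (1.16), of assembly and lipid droplets, were 2-fold higher in NASH than in control, 2 of 16 kept. Of 9 kept HDL genes 0 were apart between NASH and control or between either dose and NASH, and Saa1 was widest for NASH over control (0.90). Of 7 kept lipolysis genes 1 was higher, Angptl4 (1.19), and of 11 kept receptor genes 1 was higher, Cd36 (1.32). Among 9 kept genes of the other apolipoproteins 3 were higher, led by Apod (1.61) and Apol6 (1.35). Of 21 kept transcription factor genes 2 were higher, Nr1d1 (2.02) and Ppara (1.57). No assembly gene was 2-fold apart between either dose and NASH in colon, where Cideb (-0.73, low dose) and Acat2 (0.41, high dose) were widest. The widest HDL genes were Bmp1 (-0.35, low dose) and Abca1 (-0.33, high dose). Against NASH, Lpl was lower with the low and the high dose (-1.22 and -1.51), as was Apof (-1.29 and -1.32). Angptl4 (-1.40), Cd36 (-1.63) and Apod (-1.16) were lower with the high dose. Creb3l3 was at 0.708 FPKM in NASH, 3.41 and 2.11 with the low and high dose, and 0.799 in control (log2 1.37 for the low dose over NASH).

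Liver and colon levels stood far apart in each group. In the NASH pair Apoe was 61.1 times and Apob 46.4 times as high in liver as in colon, the narrowest gaps of the 10, and Apoc3 was 7100.0 times as high. In the control pair Apoe was 26.0 times, Apob 88.5 times and Apoa1 35197 times as high in liver. The gap of Apoa4 was 2874 times in NASH, 586 and 184 times with the low and high dose, and 833 times in control. Some gaps rest on colon levels far under 1 FPKM, so their size is uncertain. These levels were 0.119 FPKM for Apoc3 in NASH, and 0.158 for Apoa1 and 0.0534 for Apoa4 in control.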

How the data were processed

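Values are FPKM deposited by the authors, in 1 table whose 8 columns are the libraries. Per the labels' protocols, RNA extraction used TRIzol and an RNeasy Plus column, and library preparation kept strand and started from total RNA. Per the submitters' processing notes, Trimmomatic 0.38, HISAT2, StringTie and the build mm10 were used, with roles, other versions, strand setting and depth not given in the sources used here. Of 45777 NCBI identifiers, 45679 had a symbol in RefSeq GRCm38.p6. Groups came from the sample titles, and no library was left out.

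From the FPKM, log2(FPKM + 1) ratios were computed, which understate ratios of low genes. Kept genes had 1 FPKM or more in at least 1 of a tissue's 4 libraries (12866 in liver, 15245 in colon). Liver ratios are relative to the median kept gene. No test was run. Members, lists, markers and motifs were chosen with earlier results of these data known. All 10 members are named. From the lists, the largest ratios past 2-fold were named, up to 3 per direction in liver NASH over control and 2 elsewhere. Where none passed, the widest was named. Some listed genes are not reported here. Liver Creb3l3, Hnf4a and Mttp, and the marker genes, were added after their values were seen. Annotation is GENCODE M21 (GRCm38), principal transcripts. The ratio code was tested on simulated libraries. Alternatives were pseudocounts, filters and scalings. Python 3.11.15 was used with numpy 2.4.6 and pandas 2.3.3.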

Additional observations from a re-analysis of the deposited data

Results flagged for a closer look

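Apoa1 and Apoc1 were at least 2-fold apart between NASH and control in both tissues, in opposite directions. For Apoa1 the log2 ratio of NASH over control was -1.29 in liver and 1.68 in colon. For Apoc1 it was -1.57 in liver and 1.18 in colon. Liver Apoa1 was under 2-fold as deposited (-0.74, the scale used in colon), at equal protein-coding sums (-0.52) and with no filter (-0.91), and liver Apoc1 at equal sums (-0.79). With a pseudocount of 5 FPKM, colon Apoa1 was at 0.58 and colon Apoc1 at 0.65. The opposite signs held under the alternatives that gave both values. These differences between tissues were not tested, since each rests on 1 library per group, and the colon levels were 6.47 FPKM or less for both genes in the 2 groups compared.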

How the results depend on the processing

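In liver, NASH over control, members 2-fold higher numbered 2 with a pseudocount of 5 FPKM or no filter, 3 as deposited and 4 with libraries scaled to the same protein-coding sum, against 1. Members lower numbered 4 with no filter, 3 as deposited and 1 at the same sum, against 5. In colon, NASH over control had 1 higher with 5 FPKM added, 2 with a filter at 5 FPKM and 4 with 0.1 FPKM added or at the same sum, against 3. Low dose over NASH had 2 higher with a pseudocount of 0.1 FPKM and 0 with 5 FPKM, against 1, and 1 lower with 0.1 FPKM or the same sum, against 0. High dose over NASH had 2 higher with 0.1 FPKM, against 1, and 0 lower with 5 FPKM, against 1. High over low dose had 1 higher with 0.1 FPKM or the same sum, against 0. Over all genes of the table, the members' share was 3.70%, 3.45%, 3.78% and 3.45% in liver NASH, low dose, high dose and control, and 0.0270%, 0.0331%, 0.0289% and 0.0209% in colon. Of the member ratios under alternatives, 438 stayed on their side of 2-fold, 26 crossed it and 0 past 2-fold changed direction. The cause was not tested.

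Of all liver genes apart, 48.5% were higher in NASH than in control, 86.4% as deposited and 92.1% at the same sum. For low dose over NASH these were 66.3%, 44.9% and 45.7%, for high dose over NASH 68.6%, 43.3% and 29.0%, and for high over low dose 65.0%, 65.0% and 52.4%. In colon the same sum gave 16.7% against 31.7% for low dose over NASH, and 70.7% against 56.1% for high over low dose. No paired analysis was possible because each group has 1 library per tissue, and leaving out a replicate was not run for the same reason. The depth behind values near 1 FPKM is unknown.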
